A study of Mus musculus with 6 samples.

Results

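Genes of the loose extracellular matrix that surrounds the mesenchymal cells of the dental pulp were followed in the tooth germs of the lower first molar, taken from mice on the day of birth. The 10 listed genes were Tnc, Tgfbi, Postn, Fn1, Col6a1, Col6a2, Col6a3, Fbn1, Fbn2 and Vcan, taken by matching the RefSeq accession of each array probe to a gene. This gave 14 probes for 9 genes, of 17178 genes named on the array, and no probe matched Col6a3. All 14 probes were well above background on all 6 arrays. The samples were total RNA of Perp-null molars (PN1, PN2 and PN3) and of wild-type molars (WT1, WT2 and WT3), each labelled male, of strain 129/Sv and of postnatal day 0, and each was hybridised to its own one-colour array. Perp is a desmosomal membrane protein of epithelia, and the comparison asks which genes differ in expression without it. The labels name no driver or deleted exons, and they do not say whether a sample came from 1 animal or from several.

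Dental pulp forms from the mesenchyme of the dental papilla, a soft tissue rich in fibronectin, collagen VI, fibrillin microfibrils and versican. Tenascin-C, the TGF-beta-induced protein and periostin are matricellular proteins, which modulate how cells hold on to the matrix rather than carrying load. Fibronectin forms the first fibrils, to which cells attach through integrins, and collagen VI forms beaded filaments close to the cell surface. Fibrillins form the microfibrils that store latent TGF-beta and serve as scaffold for elastic fibres, and versican is a large proteoglycan that binds hyaluronan and swells the matrix.

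The deposited data came from 2 sources that did not give the same array to the same sample. The scanner files hold 1 array each, and the authors' value table holds 1 column of processed log2 values per sample. By rank correlation over 41174 gene probes, 5 of the 6 columns followed 1 scanner file closely, and for only 1 of them, WT1, was it the file of the same sample (0.9978). Column WT2 followed file WT3 (0.9992), column WT3 followed file PN1 (0.9971), column PN1 followed file WT2 (0.9981) and column PN3 followed file PN2 (0.9941). Column PN2 followed no file above 0.9774, and file PN3 was the closest match of no column. Perp went with the labels in the table, with log2 values of 7.51, 8.24 and 7.26 in columns PN1, PN2 and PN3 against 17.01, 16.95 and 16.98 in columns WT1, WT2 and WT3. In the scanner files it went against the label on 3 arrays, with log2 signals over the upper quartile of 5.87, −6.81 and 5.97 on files PN1, PN2 and PN3 and 5.96, −5.06 and 5.91 on files WT1, WT2 and WT3. Xist was high and the Y-linked genes Ddx3y, Eif2s3y and Kdm5d were low, against the male label, in columns PN1, PN3 and WT3 of the table and in files PN1, PN2 and WT2 of the scanner data. By the file headers, the 3 files labelled Perp-null lay on 1 slide (here slide 2) and the 3 labelled wild type on slide 1. Slide and label therefore cannot be told apart in the scanner files. By Perp signal each slide held 1 low file, PN2 on slide 2 and WT2 on slide 1. The labelled groups of the scanner files therefore do not set low against high Perp. The median raw signal of the negative controls was 127, 32 and 65.5 on files PN1, PN2 and PN3 and 90, 37.5 and 80 on files WT1, WT2 and WT3. Samples are therefore called by the library's label, and each value is given by its source.

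**Figure D1:**
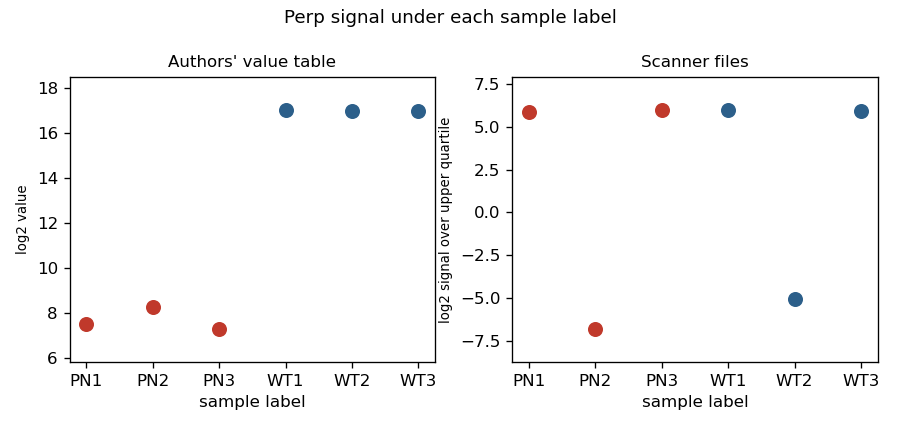
Perp signal (vertical axes, log2) under each sample label, in the authors' value table on the left and in the scanner files on the right, with 1 point per array. Table columns labelled Perp-null lie between 7.26 and 8.24 and those labelled wild type between 16.95 and 17.01, whereas in the scanner files PN1 and PN3 lie with WT1 and WT3, and WT2 lies with PN2.

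The direction of these matrix genes depended on the source, and the sources place different arrays under the same label. In the scanner files all 9 measured genes had a lower mean under the Perp-null label, by a median of −0.80 log2 units against −0.09 for all features, and 61% of all features had a lower mean. In the authors' value table, 4 of the 9 were lower and 5 higher, with a median of 0.02 against 0.01 for all features, and 48.8% of features had a lower mean. None of the 9 passed the test in either source at an adjusted p of 0.05 (limma with Benjamini-Hochberg adjustment over all features), which does not show that they did not differ. The background was 0% of 26674 features called in the scanner files, with 2.37% at an unadjusted p under 0.05, and 23.6% of 26677 called in the table, with 35.9% at an unadjusted p under 0.05. Of the 9 genes, 5 had an unadjusted p under 0.05 in the scanner files and 0 had one in the table. Files labelled Perp-null lay below all files labelled wild type for 6 of the 9 genes, against 3.49% of all features, and the table columns did so for 1 of the 9, against 24.5% of all features. They lay above all those labelled wild type for 0 of the 9 in either source, against 3.57% of all features in the scanner files and 18.7% in the table. In the scanner fit with the replicate number as a block 1 feature was called, Btbd9, and none of the 9 genes (limma, adjusted p = 0.0319 for Btbd9). Without the 3 files whose Perp signal went against the label, PN2 stood alone against WT1 and WT3, and 6 of the 9 genes passed as lower, against 39.7% of all features: Tnc, Tgfbi, Fn1, Col6a2, Fbn1 and Fbn2. The spread there is that of 2 wild-type files, file PN2 is assumed to vary like them, and slide and label stay together. Sex signal and background went with the label too. Xist was −1.06 on file PN2 against −6.96 and −7.13 on files WT1 and WT3, and Ddx3y −8.93 against 0.79 and 0.61. The negative controls were at 32 on file PN2 against 90 and 80. Perp, slide, sex signal and background cannot be told apart in this setting. In the table, leaving out column PN2 left 1 called feature, Perp, in place of 6289, and 0 of the 9 genes either way. In whole tooth germs, fewer mesenchymal cells and less RNA per cell cannot be told apart.

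**Figure D2:**
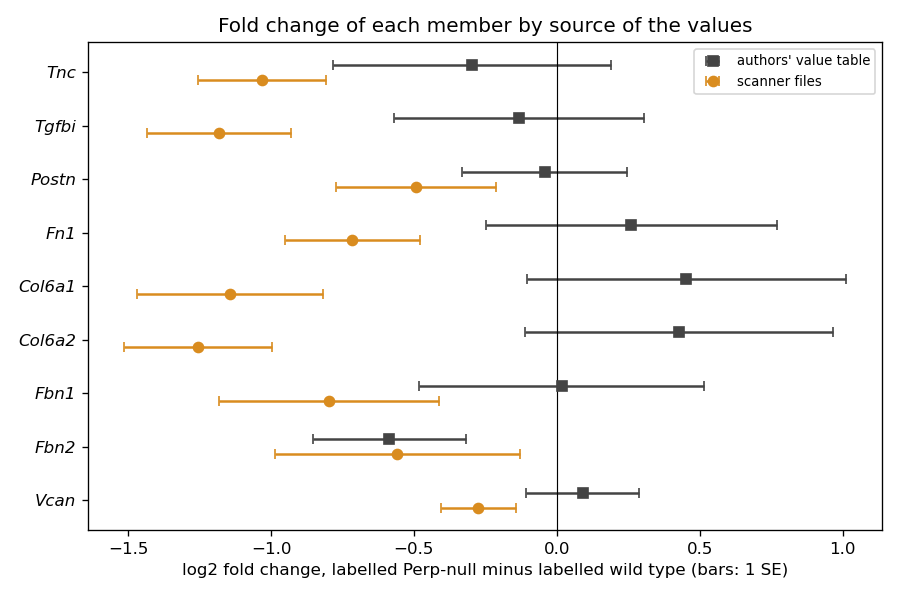
Log2 fold change of each gene (horizontal axis, labelled Perp-null minus labelled wild type) with bars of 1 standard error, from limma on 3 against 3 arrays. Squares are the authors' value table and circles the scanner files. The scanner values lie between −1.26 and −0.27, and the table values between −0.59 and 0.45.

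Among the matricellular genes, Tnc encodes tenascin-C, a six-armed glycoprotein of developing mesenchyme. Its brighter probe gave log2 signals over the upper quartile of 0.22, 0.28 and 0.97 on files PN1, PN2 and PN3, against 1.63, 1.55 and 1.39 on files WT1, WT2 and WT3. The labelled groups did not overlap, and all 3 files labelled Perp-null were lower. The log2 fold change was −1.03 (SE 0.22, adjusted p = 1.00 in limma), or 2.04-fold lower. In the table Tnc had log2 values of 12.31, 11.97 and 10.74 in columns PN1, PN2 and PN3, against 12.51, 12.34 and 11.06 in columns WT1, WT2 and WT3. There PN3 and WT3 were the low columns and the groups overlapped, with a log2 fold change of −0.30 (SE 0.49, adjusted p = 0.735 in limma). The dimmer Tnc probe averaged −2.90 ± 0.14 under the Perp-null label and −2.28 ± 0.038 under the wild-type label in the scanner files (SD, n = 3 each), without overlap. In the table its mean had the opposite sign to the brighter probe, with 8.79 ± 0.23 in Perp-null columns and 8.23 ± 0.66 in wild-type columns (SD, n = 3 each).

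Tgfbi encodes the TGF-beta-induced protein, an adhesion protein that binds collagens and integrins. Its probe gave log2 signals over the upper quartile of 2.11, 2.47 and 2.61 on files PN1, PN2 and PN3, against 4.06, 3.50 and 3.16 on files WT1, WT2 and WT3. Every file labelled Perp-null was below every file labelled wild type, and the log2 fold change was −1.18 (SE 0.25, adjusted p = 1.00 in limma). In the table Tgfbi had 14.41, 14.22 and 13.34 in columns PN1, PN2 and PN3, against 15.01, 14.10 and 13.26 in columns WT1, WT2 and WT3. The table groups overlapped, with WT1 highest and WT3 lowest, and the log2 fold change was −0.13 (SE 0.44, adjusted p = 0.876 in limma).

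Postn encodes periostin, a relative of the TGF-beta-induced protein with the same FAS1 domains, known from the dental follicle and periodontal ligament. It gave log2 signals over the upper quartile of 1.92, 2.45 and 2.50 on files PN1, PN2 and PN3, against 2.25, 2.87 and 3.23 on files WT1, WT2 and WT3. Files PN2 and PN3 lay between WT1 and WT2, so the groups overlapped, and the log2 fold change was −0.49 (SE 0.28, adjusted p = 1.00 in limma). In the table Postn had 13.55, 13.77 and 13.07 in columns PN1, PN2 and PN3, against 13.22, 14.14 and 13.16 in columns WT1, WT2 and WT3. Its table log2 fold change was −0.04 (SE 0.29, adjusted p = 0.940 in limma), the second nearest to 0 of the 9 genes.

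Fn1 encodes fibronectin. Its brightest probe gave log2 signals over the upper quartile of −0.97, −1.14 and −0.59 on files PN1, PN2 and PN3, against −0.40, −0.26 and 0.12 on files WT1, WT2 and WT3. The groups did not overlap, and the log2 fold change was −0.72 (SE 0.24, adjusted p = 1.00 in limma). In the table the same probe had 10.73, 11.09 and 9.75 in columns PN1, PN2 and PN3, against 10.42, 11.11 and 9.26 in columns WT1, WT2 and WT3. Here the groups overlapped and the mean was higher under the Perp-null label, by 0.26 (SE 0.51, adjusted p = 0.784 in limma). The 2 dimmer Fn1 probes behaved differently from the brightest. They were highest on file PN1, at −1.55 and −2.18, and lowest on file PN2, at −4.62 and −6.68, the files with the brightest and the dimmest negative controls. The part of background in these dim values was not tested.

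Collagen VI is assembled from an alpha-1, an alpha-2 and an alpha-3 chain, encoded by Col6a1, Col6a2 and Col6a3. Col6a1 gave log2 signals over the upper quartile of −0.38, 0.77 and 0.78 on files PN1, PN2 and PN3, against 1.37, 1.60 and 1.64 on files WT1, WT2 and WT3. Col6a2 gave −0.36, 0.41 and 0.62 on files PN1, PN2 and PN3, against 1.52, 1.53 and 1.38 on files WT1, WT2 and WT3. For both chains the groups did not overlap and file PN1 was the lowest. The log2 fold change was −1.14 for Col6a1 (SE 0.32, adjusted p = 1.00 in limma). It was −1.26 for Col6a2 (SE 0.26, adjusted p = 1.00 in limma), or 2.39-fold lower, the farthest from 0 among the 9 genes in the scanner files.

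In the table both collagen VI chains had a higher mean under the Perp-null label. Column WT3 followed file PN1, the lowest file for both chains, so that array stood under the other label. Col6a1 had 12.39, 12.67 and 11.59 in columns PN1, PN2 and PN3, against 12.34, 12.57 and 10.38 in columns WT1, WT2 and WT3. Col6a2 had 12.52, 12.33 and 11.60 in columns PN1, PN2 and PN3, against 12.47, 12.34 and 10.36 in columns WT1, WT2 and WT3. Column WT3 was by far the lowest for both chains, followed by PN3, and the other 4 columns lay close together. The log2 fold change was 0.45 for Col6a1 (SE 0.56, adjusted p = 0.640 in limma) and 0.43 for Col6a2 (SE 0.54, adjusted p = 0.649 in limma). Without column WT3 both turned lower, to −0.24 and −0.25, so column WT3 set their direction.

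**Figure D3:**
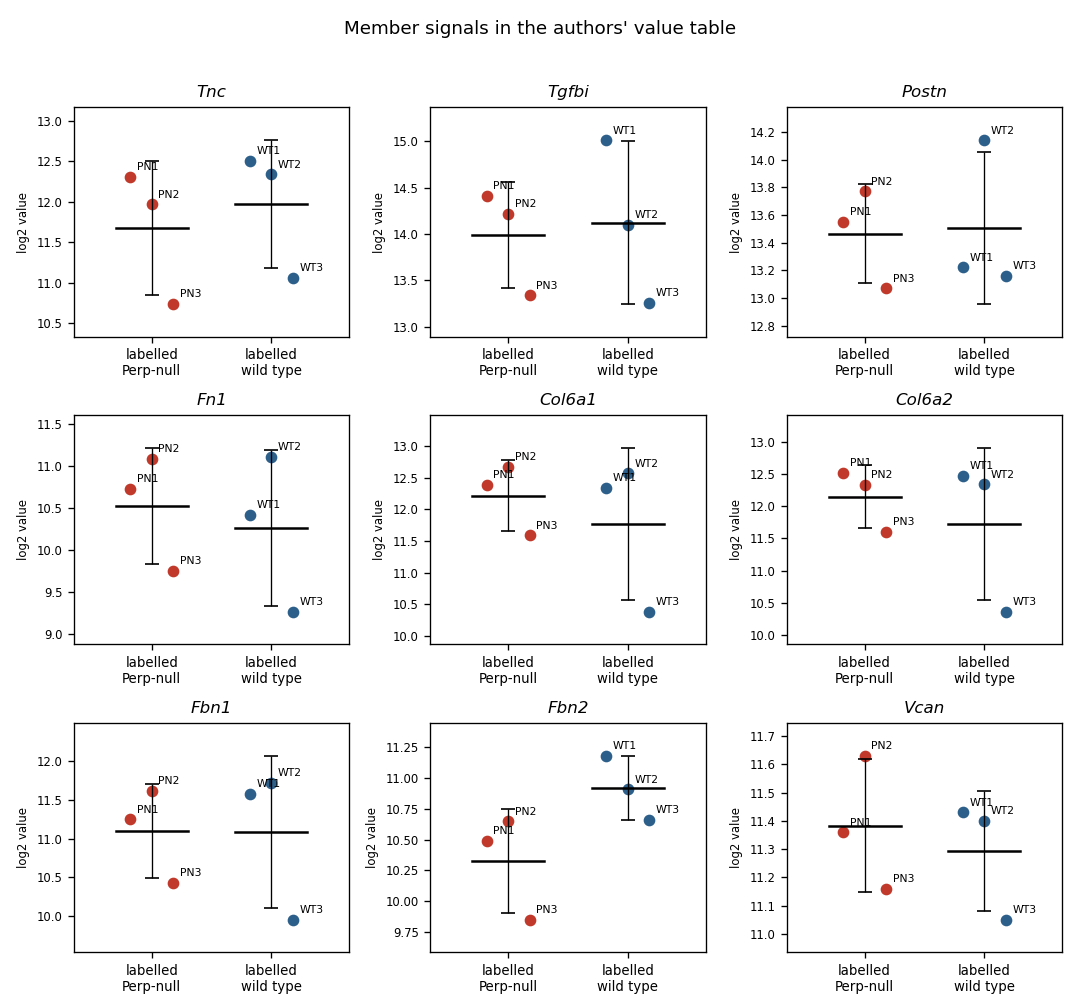
Log2 value of each gene in the authors' value table (vertical axes), with 1 point per column, columns labelled Perp-null on the left and wild type on the right; the horizontal line is the mean and the bar 1 SD (n = 3). PN3 and WT3 lie lowest for most genes, and Fbn2 alone shows no overlap of the groups.

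The sequences upstream of the 4 genes whose scanner fold changes passed 1 log2 unit are shown as those of the genes that differed most between the labelled files. Col6a1 and Col6a2 lie on chromosome 10 with no protein-coding gene between them in the RefSeq annotation, and over the 6 files their signals had the highest correlation of any of the 36 pairs of members (Pearson r = 0.969, and 0.976 over the 6 table columns). The 180 bases before the outermost annotated start are given 5′ to 3′ on the gene's strand, from RefSeq on GRCm38.p6, with matches to the searched motifs in capitals.
Tnc, chr4:64047016-64047195, minus strand: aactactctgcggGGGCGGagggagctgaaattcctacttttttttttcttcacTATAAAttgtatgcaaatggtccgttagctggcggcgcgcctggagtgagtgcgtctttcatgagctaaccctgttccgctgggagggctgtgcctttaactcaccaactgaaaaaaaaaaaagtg
Tgfbi, chr13:56609406-56609585, plus strand: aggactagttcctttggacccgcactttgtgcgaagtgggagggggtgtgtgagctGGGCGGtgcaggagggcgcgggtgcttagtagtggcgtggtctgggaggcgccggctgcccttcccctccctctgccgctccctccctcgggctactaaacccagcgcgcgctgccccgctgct
Col6a1, chr10:76726045-76726224, minus strand: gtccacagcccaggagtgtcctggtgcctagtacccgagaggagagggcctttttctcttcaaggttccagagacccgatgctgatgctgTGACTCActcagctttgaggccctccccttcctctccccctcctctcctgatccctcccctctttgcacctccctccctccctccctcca
Col6a2, chr10:76623631-76623810, minus strand: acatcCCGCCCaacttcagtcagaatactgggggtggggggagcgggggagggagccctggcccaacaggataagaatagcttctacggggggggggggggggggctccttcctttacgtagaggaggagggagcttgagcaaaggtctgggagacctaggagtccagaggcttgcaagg

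Motifs were searched on both strands of the 250 bases before each start, and no 2 matches overlapped in the stretches printed. The GC box GGGCGG, bound by SP1, was found upstream of Tnc, Tgfbi and Col6a2 but not Col6a1, and 32.7% of 32851 promoters held it. The AP-1 site TGANTCA was found upstream of Col6a1 alone of these 4 at position −90 from the start, and 6.75% of promoters held it. TATAAA was found upstream of Tnc at position −126, and 12.4% of promoters held it. CCAAT was found in none of the 4, and 33.8% of promoters held it.

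Fbn1 and Fbn2 encode fibrillin-1, the main microfibril protein of mesenchyme after birth, and fibrillin-2, which is prominent in the embryo. The brighter Fbn1 probe gave log2 signals over the upper quartile of −0.59, −0.78 and 0.64 on files PN1, PN2 and PN3, against 0.59, 0.28 and 0.79 on files WT1, WT2 and WT3. File PN3 lay within the files labelled wild type, and the log2 fold change was −0.80 (SE 0.38, adjusted p = 1.00 in limma). In the table Fbn1 had 11.25, 11.62 and 10.43 in columns PN1, PN2 and PN3, against 11.58, 11.72 and 9.95 in columns WT1, WT2 and WT3. The table groups overlapped, with a log2 fold change of 0.02 (SE 0.50, adjusted p = 0.988 in limma), the nearest to 0 of the 9 genes. The dimmer Fbn1 probe gave −0.47 (SE 0.53) in the scanner files and −0.16 (SE 0.34) in the table.

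Fbn2 had a lower mean under the Perp-null label in both sources, which share most arrays but do not group them alike. Its log2 signals over the upper quartile were −0.22, −1.62 and −0.40 on files PN1, PN2 and PN3, against 0.23, −0.70 and −0.09 on files WT1, WT2 and WT3. Here the groups overlapped, and the log2 fold change was −0.56 (SE 0.43, adjusted p = 1.00 in limma). It was −0.12 without file PN2, the lowest, and −0.35 without file WT1. In the table Fbn2 had 10.49, 10.65 and 9.85 in columns PN1, PN2 and PN3, against 11.18, 10.91 and 10.66 in columns WT1, WT2 and WT3. All 3 Perp-null columns lay below all 3 wild-type columns, the nearest pair being 10.65 in PN2 and 10.66 in WT3. Columns PN1 and PN3 followed files WT2 and PN2, the lowest files for Fbn2. These files had the dimmest negative controls, at 37.5 and 32. They also had the lowest median deviation of all features in the scanner data, at −0.28 and −0.27. The part of background in the Fbn2 values was not tested. The table log2 fold change of −0.59 (SE 0.27) was the one farthest from 0 among the 9 genes and did not pass (adjusted p = 0.158 in limma). With each column left out in turn it ran from −0.75 to −0.35, −0.35 being the value without column PN3.

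Vcan encodes versican. Its brighter probe gave log2 signals over the upper quartile of 0.15, 0.091 and 0.19 on files PN1, PN2 and PN3, against 0.37, 0.46 and 0.43 on files WT1, WT2 and WT3. The files did not overlap although the difference was small, with a log2 fold change of −0.27 (SE 0.13, adjusted p = 1.00 in limma), or 1.21-fold lower. In the table it had 11.36, 11.63 and 11.16 in columns PN1, PN2 and PN3, against 11.43, 11.40 and 11.05 in columns WT1, WT2 and WT3. These overlapped, with a log2 fold change of 0.09 (SE 0.20, adjusted p = 0.809 in limma). The dimmer Vcan probe had means of −1.29 ± 0.36 and −1.12 ± 0.18 in files labelled Perp-null and wild type (SD, n = 3 each). In the table this probe had means of 10.20 ± 0.21 and 9.77 ± 0.39 in Perp-null and wild-type columns (SD, n = 3 each).

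**Figure D4:**
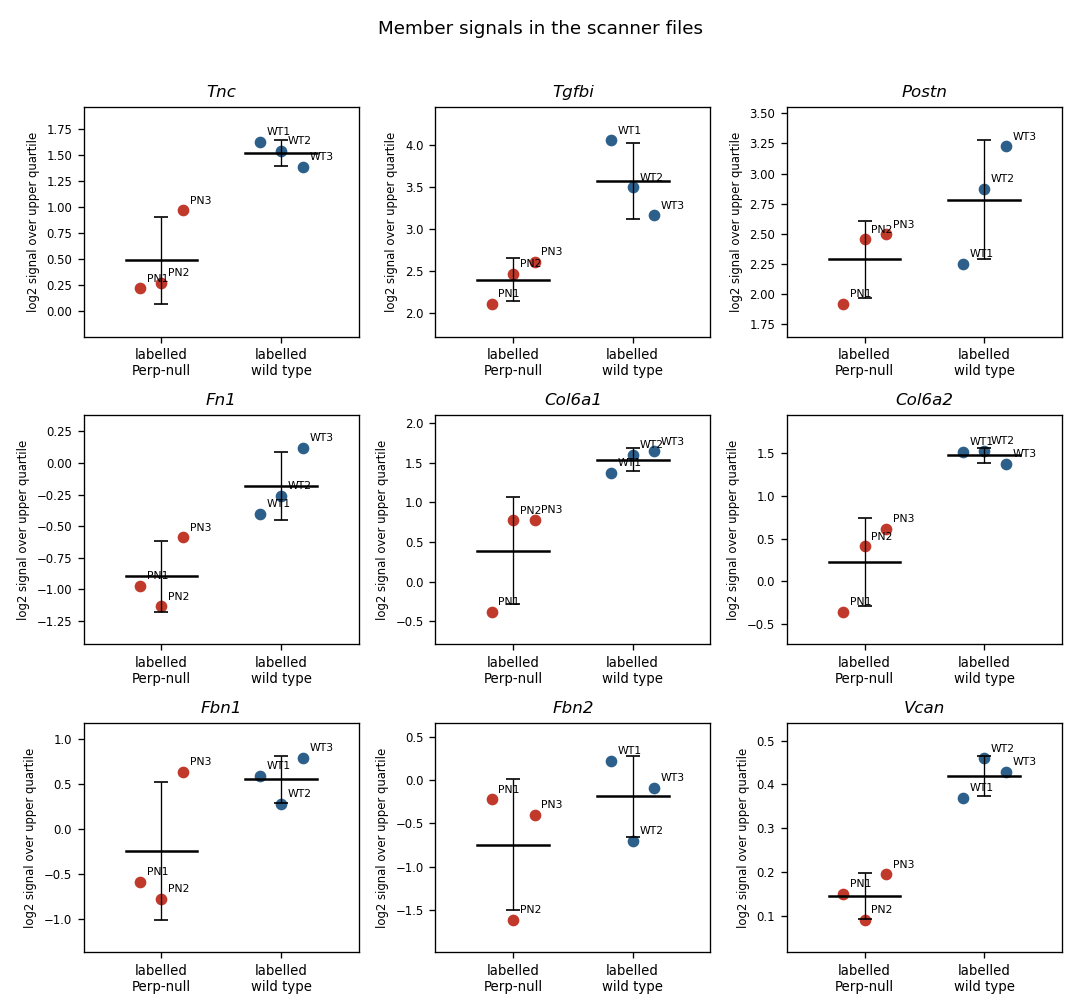
Log2 signal of each gene over the upper quartile of its array in the scanner files (vertical axes), with 1 point per file, files labelled Perp-null on the left and wild type on the right; the horizontal line is the mean and the bar 1 SD (n = 3). For 6 of the 9 genes the 3 files labelled Perp-null lie below all 3 labelled wild type, and for Postn, Fbn1 and Fbn2 the groups overlap.

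The 9 matrix genes varied together across arrays in both sources, which share most of their arrays and so are not repeats of each other. Over the 6 table columns the pairwise correlations of the 9 genes ran from 0.29 to 0.976 with a median of 0.768, and over the 6 files from −0.05 to 0.969 with a median of 0.761. These correlations are descriptions over 6 arrays that share slides and scaling. In the table all 9 genes were below their own mean in column PN3 and 8 of 9 in column WT3, with mean deviations of −0.579 and −0.844 log2 units. In columns PN1, PN2, WT1 and WT2 the mean deviations were 0.253, 0.357, 0.380 and 0.433. The lowest column was WT3 for 6 of the 9 genes and PN3 for the other 3.

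Columns PN3 and WT3 are the ones that followed scanner files of slide 2, and columns PN1, WT1 and WT2 followed files of slide 1. For 8 of the 9 genes both slide 2 columns lay below all 3 slide 1 columns, against 9.21% of all features. The median difference, slide 2 minus slide 1, was −1.25 log2 units for the 9 genes and 0.005 for all features. Tnc differed the most between the slides, with means of 10.9 in slide 2 columns and 12.4 in slide 1 columns, a difference of −1.49. Vcan differed the least, by −0.29, and Fbn2 was the gene whose slide 2 and slide 1 columns overlapped. Both slide 2 columns, and column PN1 of slide 1, also had sex signals against the male label. Whether slide, sex, litter or dissection went with this difference was not tested.

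Within a slide the genotypes could be set side by side with 1 or 2 columns each, with no test. On slide 1, column PN1 minus the mean of WT1 and WT2 had a median of −0.115 over the 9 genes, and 8 of them were lower. Column PN1 had high Xist and low Y-linked genes, the reverse of WT1 and WT2, so genotype and sex signal cannot be told apart on slide 1. On slide 2, column PN3 minus column WT3 had a median of 0.11, and 3 of the 9 were lower. No share over all features was computed beside these counts. By the brightest probe of each gene, Fbn2, Tnc and Postn were lower on both slides, with Fbn2 at −0.56 on slide 1 and −0.81 on slide 2. The dimmer Tnc probe was higher on both slides. It had 8.96 in column PN1 against 8.57 and 8.64 in WT1 and WT2, and 8.53 in PN3 against 7.47 in WT3. Col6a1 and Col6a2 were higher on slide 2 by 1.21 and 1.24, whereas on slide 1 they differed by −0.07 and 0.12. With slide as a block over the 5 matched columns, none of the 9 genes passed and 1 feature of 26677, Perp itself, was called (limma, adjusted p = 3.27e-06).

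**Figure D5:**
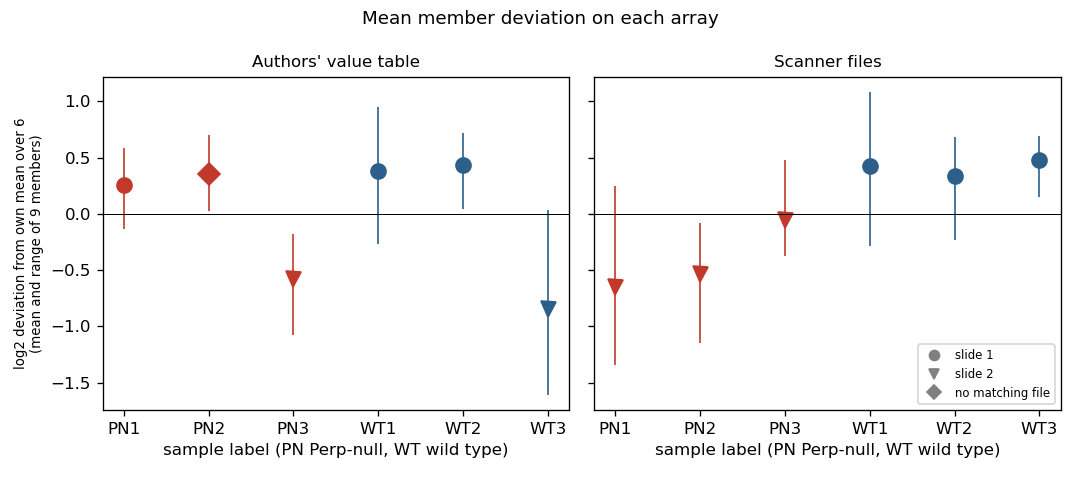
Mean deviation of the 9 genes from their own mean over 6 arrays (symbols, log2 units), with the range over the genes as a line, for each column of the authors' value table on the left and each scanner file on the right. Circles are slide 1, triangles slide 2 and the diamond a column with no matching file. In both panels, which share most of their arrays, the triangles lie below the circles, at −0.84 and −0.58 in the table for WT3 and PN3. Those columns followed files PN1 and PN2, at −0.65 and −0.54 in the scanner panel. The remaining triangle, file PN3, lies near 0 at −0.05 and was the closest match of no column.

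Of 92 further genes that work with these proteins, 85 were measured. In the scanner files 78 had a lower and 7 a higher mean under the Perp-null label and 0 passed, where 61% of all features had a lower mean. By the table values 46 were lower and 39 higher, where 48.8% of all features had a lower mean. The same shares are the background for the lists below, with a median over all features of −0.09 in the scanner files and 0.01 in the table. There 5 passed as lower, against 14.9% of all features, and 3 as higher, so 8 of 85 passed, against 23.6% of all features in either direction.

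The elastic fibre and microfibril partners had a median log2 fold change of −0.22 over 17 genes in the scanner files, with 16 lower, and −0.003 in the table, with 9 lower. Mfap4, a microfibril-associated glycoprotein, gave −0.74 (SE 0.15) in the scanner files. The elastic fibre gene Efemp1 had the smallest p of this list in the table, at 0.32 (SE 0.26), and none of the 17 passed in either source. The integrins and other receptors had a median of −0.31 over 20 genes in the scanner files, with 19 lower, and −0.04 in the table, with 13 lower. Itga9, the alpha chain of a tenascin-C receptor, gave −0.73 (SE 0.19) in the scanner files, and Itga8, which binds fibronectin with its beta-1 partner, gave −0.50 (SE 0.32) in the table. None of the 20 passed in either source.

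The genes of crosslinking and processing, among them the lysyl oxidases, had 13 of 13 lower in the scanner files and 9 of 13 lower in the table, with medians of −0.34 and −0.08. Transglutaminase Tgm2 gave −0.70 (SE 0.22) in the scanner files, and Loxl4 gave −1.06 in the table (SE 0.33, adjusted p = 0.0537 in limma), so 0 of 13 passed. TGF-beta ligands, receptors and Smads had 11 of 11 lower in the scanner files, with a median of −0.26. By the table values 5 of the 11 were lower, with a median of 0.007. The receptor Tgfbr1 gave −0.54 (SE 0.29) in the scanner files, and the co-receptor Tgfbr3 rose in the table, to 7.55 ± 0.23 in Perp-null columns against 6.58 ± 0.32 in wild-type columns (SD, n = 3 each; limma, adjusted p = 0.0216).

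Other tenascin, FAS1 and collagen VI family members had a median of −0.58 over 7 genes in the scanner files, with 7 lower, and 0.08 in the table, with 3 lower. The hyaluronan and versican partners had a median of −0.19 over 17 genes in the scanner files, with 12 lower, and 0.10 in the table, with 7 lower. In the scanner files Stab1, a scavenger receptor with FAS1 domains, gave −0.58 (SE 0.16) and Hapln1, a link protein that joins versican to hyaluronan, gave −0.93 (SE 0.24), and neither passed. The other called genes were tenascin, collagen VI, FAS1 and hyaluronan relatives in the table. Tnxb, encoding tenascin-X, fell to 7.37 ± 0.40 in Perp-null columns, against 9.21 ± 0.37 in wild-type columns (SD, n = 3 each; limma, adjusted p = 0.0216). Tnr, encoding tenascin-R, gave −1.66 (SE 0.33), and Col6a6, a further collagen VI chain, gave −1.81 (SE 0.42). Adamts20, a versican-cleaving protease, gave −1.86 (SE 0.33) and Bcan, the brain lectican brevican, gave −1.62 (SE 0.38). On the higher side, Ncan, the lectican neurocan, gave 1.37 (SE 0.31) and Stab2, a hyaluronan scavenger receptor with FAS1 domains, gave 0.80 (SE 0.23). Adjusted p-values of these 6 ran from 0.0216 for Tnr and Adamts20 to 0.0412 for Stab2 (limma). Most of these probes were dim: Tnxb, Tnr, Col6a6 and Adamts20 were well above background on 5 of the 6 scanner files, Ncan and Tgfbr3 on 4, and Bcan and Stab2 on 6. The columns PN1 and PN3 followed the 2 files with the dimmest negative controls, at 37.5 and 32, and the columns WT1, WT2 and WT3 files with 90, 80 and 127. The part of this background in the calls was not tested. Without column PN2 the table gave 1 called feature in place of 6289, Perp, so none of these 8 genes remained (limma, adjusted p = 6.57e-07 for Perp).

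Markers of the cells a tooth germ holds were measured beside these genes. The 12 dental mesenchyme and fibroblast markers were all well above background on all 6 arrays. All measured markers of the other cell types were too, except those of cartilage. In the table the mesenchyme markers averaged 11.8 to 12.2 in Perp-null columns and 10.9 to 12.1 in wild-type columns (log2). The lowest values lay in columns WT3 (10.9) and PN3 (11.8), as for the matrix genes. In the scanner files these mesenchyme markers averaged 0.148 to 0.882 under the Perp-null label and 1.08 to 1.36 under the wild-type label. Markers of other cell types were lower with them in the scanner files, also without overlap of the labelled groups: the 6 endothelial markers ran from −0.851 to −0.101 against 0.186 to 0.564 under the Perp-null and wild-type labels, and the 5 measured macrophage markers from −0.519 to 0.17 against 0.77 to 0.929. Markers of odontoblasts and bone (1.56 to 3.56 against 2.99 to 3.2), epithelium (4.16 to 4.7 against 4.27 to 4.59) and red blood cells (2.52 to 2.76 against 2.46 to 3.32) overlapped between the labels. So did those of cartilage (−4.66 to −0.825 against −2.79 to −1.36), muscle (−2.83 to 0.629 against −2.4 to −1.16) and Schwann cells (−5.14 to −1.56 against −3.95 to −2.35). In the table the 6 endothelial markers were also lowest in column WT3 (9.63), followed by PN3 (10.9), and so were the macrophage markers, at 10.2 and 11. The 6 odontoblast and bone markers stood at 12.6 in both columns against 13.3 to 14 in the other 4. The 8 dental epithelium markers did not go with the matrix genes, at 15.1 in PN3 and 15.4 in WT3 within a range of 14.7 to 15.4. The 6 cartilage markers ran from 8.36 to 9.08 in Perp-null columns and from 9.25 to 9.87 in wild-type columns, with 4 of the 6 well above background on all files. The 6 skeletal muscle markers, 4 red blood cell markers and 3 measured Schwann cell markers ran from 9.13 to 10.6, from 13.6 to 14.4 and from 7.93 to 8.08 in Perp-null columns. In wild-type columns these ran from 9.78 to 10.6, from 13.5 to 14.3 and from 8.46 to 8.61. The part of cell content in the matrix gene values was not tested.

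The genes whose values over the 6 arrays most resembled the mean deviation of the 9 matrix genes were ranked by Pearson correlation over 6 arrays. Of 15573 other named genes in the table, the nearest were Cd276, Pcdh12, Mfap4, Nkd1, Rhoc, Olfml3, Tmem86a, Ifnar1, Clec11a and Ilk, at 0.9881 to 0.9952. Of 15528 in the scanner files, the nearest were Pcgf5, Clec11a, Mrpl36, Snx12, Pf4, Dclk1, Pygl, Evi2a, Asph and Ralb, at 0.9836 to 0.9951. Clec11a, which encodes a growth factor for bone-forming cells, was in both sets, which rest on mostly the same arrays. Mfap4 is also among the microfibril partners above. With 6 arrays and so many genes, high correlations occur in number, and they are given as a description.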

How the data were processed

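The deposited scanner files hold spot intensity of 1 array each, which the authors extracted with Agilent Feature Extraction (10.5.1.1 per the file headers, 10.3 per the submitters' processing notes); the processed signal is background-subtracted and not scaled between arrays. Flags for saturation, outlier spots and signal well above background, another kind of value of 0 or 1, come from the same deposited files. The authors' value table holds log2 values, a scale read from the match to log2 scanner signals; all columns share a maximum of 17.86 and an upper quartile of 10.98, column medians are 8.36 to 8.39, genes are not centred, and the scaling method is not given in the sources used here.

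Log2 processed signal minus the log2 75th percentile of the non-control spots was used, without flagged outlier spots (4 to 68 per array). Accessions were matched to RefSeq genes of GRCm38.p6, which named 24844 of 41174 probes (60.3%). A probe was kept if 3 or more of the 6 files had it well above background, and the brightest kept probe stood for its gene. The fit between labelled groups used limma 3.58.1 (R 4.3.3), with eBayes with trend and Benjamini-Hochberg adjustment over all features at a threshold of 0.05. On data simulated with the spread of the real arrays, it missed most planted changes of 1 log2 unit in either source. The table was fitted on the same probes. Between 72.8% and 82.3% of probes were well above background and 0 were saturated; 3 arrays per group limit the precision. The labels call the samples biological replicates, without saying which animals or litters gave them; the spread behind each p-value is that among these 3 and 3 samples, which may in part be technical.

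The scanner fit is the one planned; the table was planned as an alternative and was given its own account after its columns were found to follow other files. Samples were grouped by label only; files or columns at odds with their label were left out in alternatives and never moved to the other group. The members and lists were chosen with earlier results of these data known. Named genes were the members, Perp, the sex genes as a check, the 2 genes of smallest p per list and the 10 nearest in pattern; Btbd9 and the other called genes of the lists were named after their values were seen. Deviations of same-numbered samples correlated at 0.843, 0.876 and 0.193 in the scanner files, each above 0.1, so the block is given beside the scanner result; no label says what the number marks, and it is also the position on the slide. Alternatives covered scaling, background correction, filters, probe rules, variance models, array weights, the replicate block and left-out arrays. Normexp used the median spot signal.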

Additional observations from a re-analysis of the deposited data

How the results depend on the processing

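In the scanner files the 9 genes kept a lower mean in all settings run on those files, and 0 of them passed in any of these except without the 3 files whose Perp signal went against the label. That setting leaves PN2 alone against WT1 and WT3, assumed to vary like them, and called 12084 features, 10562 of them lower (39.7% of those tested), and 6 of the 9 genes: Tnc, Tgfbi, Fn1, Col6a2, Fbn1 and Fbn2. Without the 3 files whose sex signals went against the label, 32 features and 0 members were called; this sets PN3 alone, whose Perp signal is at the level of WT1 and WT3, against these 2 files, which give the spread, so the count says nothing about genotype. A single feature, Btbd9, was called in place of 0 with normexp, array weights or the replicate block (1 each; limma, adjusted p = 0.0319 with the block), and the replicate block called 0 members. With each file left out in turn, 0 features and 0 members were called, the members lower stayed at 9, and their median ran from −1.24 (without PN3) to −0.60 (without PN2). The median was −0.45 with array weights and −0.47 without the files of discordant sex signals, where Fbn1 gave −0.12 and −0.06.

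The authors' value table in place of the scanner files gave 6289 called features, a member median of 0.02 and 4 members lower, and it turned Fn1 (0.26), Col6a1 (0.45), Col6a2 (0.43), Fbn1 (0.02) and Vcan (0.09) to higher. All settings within the table were chosen after seeing the data. There the count was 1543 on probes well above background on all files, 1 with the replicate block (same-numbered columns correlated at 0.407, 0.393 and −0.025, so the numbers were not taken as pairs), 1 with the slide block and 0 without the 3 columns whose sex signals went against the label, where PN2 stands alone against WT1 and WT2, which give the spread, and 7306 had an unadjusted p under 0.05. It ran from 1 (without PN2) to 5919 with each column left out, being 786 without PN3, 2688 without WT3 and 3203 without WT1. The members called stayed at 0 in each of these, the members lower ran from 1 (without PN3) to 9 (without WT3), 7 without PN2, and their median from −0.25 to 0.27.

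Every member but Fbn2 changed sign under some setting in the table. The mean over probes gave 0.13 for Tnc, −0.05 for Fn1 and −0.07 for Fbn1, array weights gave −0.16 and the slide block −0.02 for Fbn1. Without the columns of discordant sex signals Postn gave 0.09, Col6a2 −0.08 and Fbn1 −0.03. With each column left out, Tnc ran from −0.75 to 0.17, Tgfbi from −0.56 to 0.31, Postn from −0.22 to 0.27, Fn1 from −0.24 to 0.68, Col6a1 from −0.24 to 0.86, Col6a2 from −0.25 to 0.80, Fbn1 from −0.55 to 0.35 and Vcan from −0.03 to 0.20. The cause of these changes was not tested. Median scaling moved the median of all features to −0.17, normexp to −0.23 and leaving out PN2 to 0.23, against −0.09.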
